A study of Mus musculus with 13 samples.

Results

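SWI/SNF subunit genes were followed in gluteal WAT, a subcutaneous white fat depot of the mouse, at 2 housing temperatures. The 10 genes were taken by name from the table of raw counts: the ATPases *Smarca2* and *Smarca4*, the core subunits *Smarcb1*, *Smarcc1*, *Smarcc2*, *Smarcd1* and *Smarcd3*, and the targeting subunits *Arid1a*, *Arid1b* and *Pbrm1*. They are 10 of 34419 genes in the table, and all 10 were among the 17779 genes with enough counts to be compared. The genes were chosen by name with their fold changes between 22°C and 29°C in these libraries already known, so that difference is given below as a description, without a test.

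SWI/SNF complexes, also called BAF complexes, use the energy of ATP to slide or evict nucleosomes, and so open or close the DNA of promoters and enhancers. Each complex holds either SMARCA2 (BRM) or SMARCA4 (BRG1) as its motor. The core has SMARCC and SMARCD subunits and, in some forms, SMARCB1. ARID1A or ARID1B marks the canonical complex, PBRM1 and ARID2 mark the PBAF form, and BRD9 with BICRA or BICRAL marks the non-canonical form. In fat, SWI/SNF is known as a partner of the C/EBP factors and PPARγ when precursor cells become adipocytes.

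The mice were C57BL/6J males bred in thermal chambers and kept at 22°C (7 mice) or near thermoneutrality at 29°C (6 mice) from birth until they were 13 weeks old. In both groups the posterior hair was removed after weaning and, per the study's methods, each animal had a cage of its own without nest material. RNA of the whole depot was sequenced as 1 library per mouse, so replicates are separate animals. In such tissue, fewer cells of a type and less RNA per cell cannot be told apart. Values are CPM, counts scaled to the size of the library, after TMM scaling, a correction for libraries dominated by a few genes, and fold changes are log2 of 22°C over 29°C from edgeR.

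Some libraries stood apart. Totals of 22°C replicates 1 to 5 were between 22356637 and 22857079 counts, while 8 libraries, replicates 6 and 7 at 22°C with the 6 from 29°C, had between 24821549 and 25245785 counts. Library total and temperature are thus partly confounded. Skeletal muscle markers (*Acta1*, *Myh4*, *Myh1*, *Ckm*, *Tnnt3*, *Mylpf* and *Atp2a1*) had a summed level of 643 to 68900 CPM at 22°C and 85.3 to 5420 CPM at 29°C. All 7 were higher at 22°C, and 0 of 7 passed edgeR's P-adj < 0.1 (1.94% of all genes tested did). An unadjusted p under 0.05 was found for 3 (18.5% of all genes), and DESeq2 called 3 (10.2%). The score of these markers, their mean log2(CPM + 1), was highest in 22°C replicates 1 and 7, at 12.51 and 12.70. The adipocyte marker *Adipoq* was present in every library, between 1600 and 3090 CPM, and the 7 adipocyte markers summed to 17600 to 25800 CPM at 22°C and 18600 to 29900 CPM at 29°C. Of these, 2 were higher and 5 lower at 22°C, and 1 passed edgeR's P-adj < 0.1. The 4 endothelial and 4 Schwann cell markers were all lower at 22°C (0 passed), and the 5 lymphocyte markers, at summed levels of at most 19 CPM, were all higher (1 passed). Their part in the results was not tested. The mean log2 level of the adipocyte markers was lowest in the same 22°C replicates 1 and 7, at 10.72 and 10.62.

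Because *Smarca2* and *Smarca4* encode alternative motors of the same complex, their sequences are shown first, at the promoters and at the longest run of identical bases in their coding sequences. The promoters are the 250 bases before the RefSeq start in GRCm38.p6, on the plus strand, at chr19:26604910-26605159 for *Smarca2* and chr9:21615919-21616168 for *Smarca4*. Capitals mark GC boxes, the letters GGGCGG read on either strand.
*Smarca2* promoter: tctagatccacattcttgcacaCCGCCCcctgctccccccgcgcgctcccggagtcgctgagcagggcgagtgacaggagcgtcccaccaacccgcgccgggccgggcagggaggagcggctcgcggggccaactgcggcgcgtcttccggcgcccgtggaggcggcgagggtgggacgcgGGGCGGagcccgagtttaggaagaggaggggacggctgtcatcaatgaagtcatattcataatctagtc
*Smarca4* promoter: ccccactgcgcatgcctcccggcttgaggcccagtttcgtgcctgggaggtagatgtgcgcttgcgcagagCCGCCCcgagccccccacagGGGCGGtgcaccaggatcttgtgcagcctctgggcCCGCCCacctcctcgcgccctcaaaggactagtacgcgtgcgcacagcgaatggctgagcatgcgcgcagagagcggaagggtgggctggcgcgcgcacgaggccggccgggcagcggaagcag
The *Smarca2* window held 2 GC boxes and the *Smarca4* window 3, a motif found in 33.0% of 32544 mouse promoter windows of the same length. Both windows were rich in G and C, at 68.4% and 70.8%, against a median of 52.4% over all windows. They held 28 and 25 CpG dinucleotides, against a median of 6.0. Neither held the letters CCAAT (in 33.8% of windows), TATAAA (12.3%) or TGACGTCA (1.55%) on either strand. All 10 genes had a RefSeq promoter entry. These matches describe the letters of the windows only.

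The coding sequences of *Smarca2* and *Smarca4* (4803 and 4851 bases in GENCODE vM21) were identical at 73.7% of 4709 aligned bases. Their longest shared run was 20 bases, shown in capitals below with 15 bases on each side, to show how far the longest identical stretch reaches.
*Smarca2* coding bases 556 to 605: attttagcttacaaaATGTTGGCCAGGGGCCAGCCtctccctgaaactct
*Smarca4* coding bases 550 to 599: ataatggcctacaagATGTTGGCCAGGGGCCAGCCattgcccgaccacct
These windows differed at 13 positions, all outside the shared run. Annotated transcripts of the pair shared 0 stretches of 50 bases, and the same was found for *Smarcc1* with *Smarcc2*, *Smarcd1* with *Smarcd3* and *Arid1a* with *Arid1b*. The counts add up all isoforms of a gene. *Smarca2* has 46 annotated transcripts, of which 27 are protein coding, and *Smarca4* has 4.

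*Smarca2* was lower in the fat of the 22°C mice. At 22°C its levels were 109, 127, 128, 110, 113, 126 and 136 CPM in replicates 1 to 7, a mean of 121 ± 10.5 (SD, n = 7). At 29°C they were 155, 164, 168, 168, 177 and 177 CPM, a mean of 168 ± 8.06 (SD, n = 6). Every mouse at 22°C was below every mouse at 29°C. The log2 fold change was -0.47 (SE 0.065), so that the level at 22°C was 27.8% lower. *Smarca2* was 1 of the 10 genes, and the only one, to pass edgeR's P-adj < 0.1, against 1.94% of all genes tested, and 1.21% passed as lower at 22°C. Groups that did not overlap, lower at 22°C, were seen for 0.748% of genes tested. Since this contrast was used to choose the genes, nothing is read from these counts.

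*Smarca4* differed less between temperatures. Its levels at 22°C were 93.7, 81.4, 80.3, 82.8, 82.7, 95.2 and 105 CPM, a mean of 88.7 ± 9.37 (SD, n = 7). At 29°C they were 95.0, 95.2, 98.2, 101, 99.6 and 111 CPM, a mean of 100 ± 5.94 (SD, n = 6). The groups overlapped: 5 of 7 mice at 22°C were below the lowest mouse at 29°C, and replicates 6 and 7 were within the range at 29°C. The log2 fold change was -0.17 (SE 0.071). It was larger in size with the adipocyte score as a covariate (-0.252, SE 0.083) and without 22°C replicates 1 and 7 (-0.248, SE 0.061). With the replicate number as a block, over replicates 1 to 6 only, it was -0.22 (SE 0.055). That fit drops 22°C replicate 7, and without this mouse and with no block the log2 fold change was -0.219 (SE 0.062). With the muscle score it was -0.194 (SE 0.084). It was smaller among libraries with higher totals alone (-0.008, SE 0.087) and when the fit allowed for lower or higher totals (-0.001, SE 0.083).

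**Figure D1:**
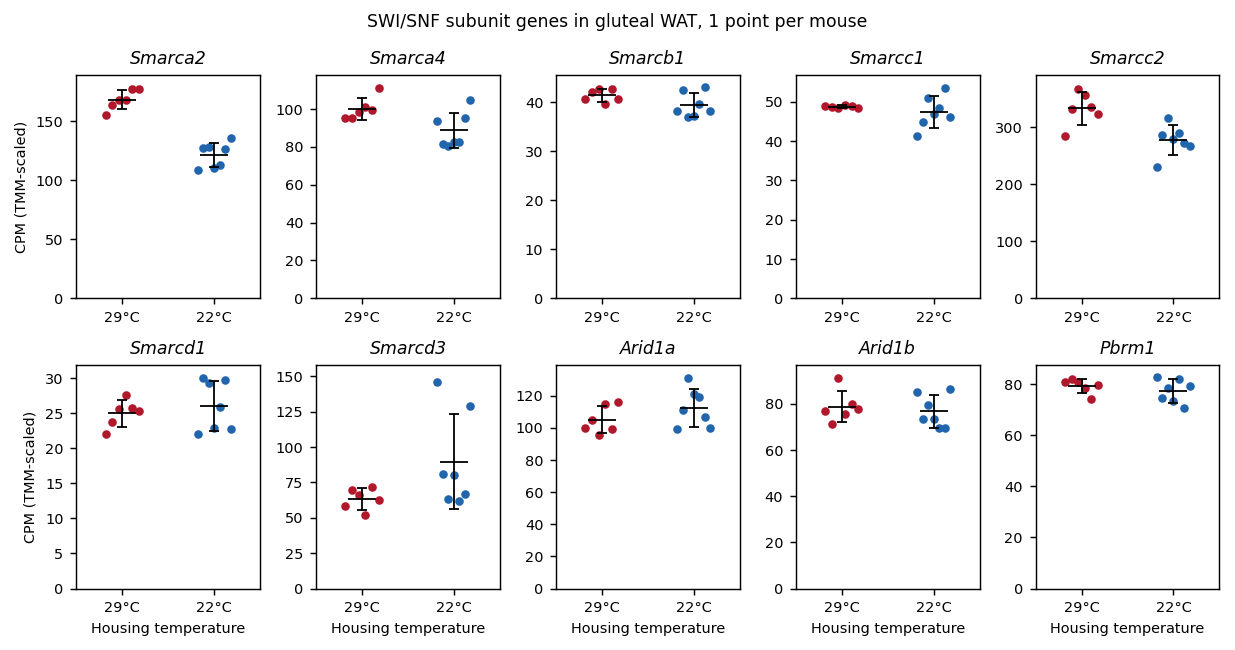
CPM (TMM-scaled) of each of the 10 SWI/SNF subunit genes, 1 point per mouse in replicate order, with 29°C in red and 22°C in blue; horizontal bars are means and error bars are SD. *Smarca2* is the only panel in which all 7 mice at 22°C (109 to 136 CPM) sit below all 6 mice at 29°C (155 to 177 CPM), while in *Smarcd3* replicates 1 and 7 at 22°C stand above the rest.

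These differences lined up differently with library total. In the 5 libraries at 22°C with lower totals, *Smarca4* had a mean of 84.2 CPM, whereas 22°C replicates 6 and 7, with higher totals, had 95.2 and 105 CPM, a mean of 100 that equalled the mean of 100 at 29°C. *Smarca2* had a mean of 117 CPM in the 5 lower-total libraries and 126 and 136 CPM in 22°C replicates 6 and 7, which remained below the lowest mouse at 29°C. Among libraries with higher totals alone, the fitted log2 fold change was -0.37 (SE 0.087) for *Smarca2* and -0.008 for *Smarca4*, with only 2 mice at 22°C. In that fit, and with the cluster of totals as a covariate (-0.36, SE 0.089), *Smarca2* no longer passed P-adj < 0.1. Its fold change was -0.50 to -0.45 in the 13 fits that left out 1 mouse, -0.456 with the muscle score and -0.469 with the adipocyte score as a covariate. Within temperatures, *Smarca2* had a Pearson correlation of -0.05 with the muscle score at 22°C (exact permutation p = 0.898, two-sided, n = 7) and -0.41 at 29°C (exact permutation p = 0.436, n = 6). The adjusted values, over 20 such relations, were 0.912 and 0.678. Spearman's rho was 0.07 (exact permutation p = 0.906) and -0.20 (exact permutation p = 0.714). Without the 2 libraries farthest from the median score, r was -0.35 at 22°C and 0.93 at 29°C, so that the value at 29°C turned with 2 mice.

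**Figure D2:**
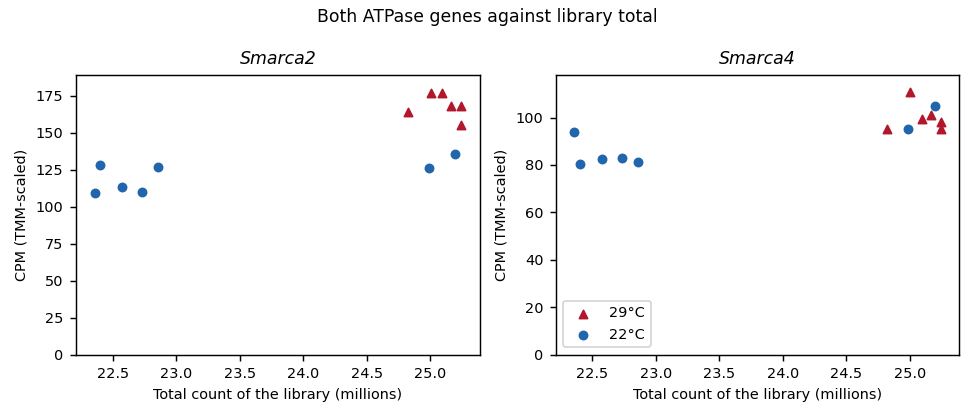
CPM (TMM-scaled) of *Smarca2* (left) and *Smarca4* (right) against the total count of each library, with 22°C as blue circles and 29°C as red triangles. The 2 libraries at 22°C with higher totals lie below all 29°C libraries for *Smarca2* (126 and 136 CPM) and among them for *Smarca4* (95.2 and 105 CPM).

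The balance between the RNAs of the motor genes can be read within each library, where scaling cancels. It is a ratio over the whole depot, and the balance of the proteins in complexes was not measured. Levels of different genes were compared per kb of the transcript with the longest coding sequence. The ratio of *Smarca2* to *Smarca4* per kb was 1.27, 1.69, 1.73, 1.44, 1.49, 1.44 and 1.41 in replicates 1 to 7 at 22°C, a mean of 1.5 ± 0.163 (SD, n = 7). At 29°C it was between 1.73 and 1.93, a mean of 1.83 ± 0.0736 (SD, n = 6). In 6 of 7 mice at 22°C the ratio was below the lowest at 29°C, and replicate 3 was level with it at the digits given. The difference in log2 ratio was -0.295, and -0.358 among libraries with higher totals, with only 2 mice at 22°C. It was -0.259 with the muscle score and -0.216 with the adipocyte score as a covariate. Leaving out the muscle-rich 22°C replicates 1 and 7 gave -0.233. Which motor gene is the more abundant per length depended on the length used: with all annotated exons, 14269 bases for *Smarca2* and 6475 for *Smarca4*, the ratio was between 0.53 and 0.806 in the 13 libraries. The difference between temperatures is the same with either length.

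The *Smarcc* subunits form the scaffold on which the complex is assembled. *Smarcc2* had the highest level per kb of the 10 genes with either length. It was at 230 to 316 CPM at 22°C (median 279, mean 277 ± 26, SD, n = 7) and 284 to 367 CPM at 29°C (median 334, mean 333 ± 29, SD, n = 6). Its groups overlapped, with 4 of 7 mice at 22°C below the lowest at 29°C, and the log2 fold change was -0.265 (SE 0.081). *Smarcc2* passed P-adj < 0.1 with DESeq2, by which 10.2% of genes passed, but not with edgeR. Among libraries with higher totals its difference in mean log2 CPM was -0.298, with 272 and 268 CPM in 22°C replicates 6 and 7. Its paralog *Smarcc1* was at 41.3 to 53.6 CPM at 22°C (median 46.9) and at 48.3 to 49.2 CPM at 29°C (median 48.8), with a log2 fold change of -0.039 (SE 0.056). The means of *Smarcc1* were 47.4 ± 4.05 (SD, n = 7) and 48.7 ± 0.361 (SD, n = 6), and the mice at 22°C lay on both sides of those at 29°C. The ratio of *Smarcc2* to *Smarcc1* per kb had a mean of 8.31 ± 0.612 in the 22°C mice (SD, n = 7) and of 9.70 ± 0.852 in the 29°C mice (SD, n = 6), and 3 of 7 mice at 22°C were below the lowest mouse at 29°C.

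*Smarcb1* encodes the core subunit that contacts the nucleosome. It was at 37.0 to 43.2 CPM at 22°C (median 38.3, mean 39.4 ± 2.52, SD, n = 7) and 39.7 to 42.8 CPM at 29°C (median 41.5, mean 41.5 ± 1.29, SD, n = 6). The groups overlapped, and the log2 fold change was -0.072 (SE 0.05).

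The *Smarcd* subunits link the complex to transcription factors, and SMARCD3 (BAF60c) is known as a partner of MyoD in muscle. *Smarcd3* was at 146, 80.9, 63.3, 80.5, 62.1, 66.5 and 129 CPM in replicates 1 to 7 at 22°C, a mean of 89.8 ± 34 (SD, n = 7). At 29°C it was at 58.1, 69.9, 66.1, 51.8, 71.9 and 62.6 CPM, a mean of 63.4 ± 7.56 (SD, n = 6). Replicates 1 and 7 at 22°C, which had the highest muscle scores, were far above the others, and the remaining 5 mice at 22°C were at 62.1 to 80.9 CPM. The log2 fold change was 0.50 (SE 0.204), the highest of the 10 genes. It was 0.34 without 22°C replicate 1, 0.39 without replicate 7 and 0.15 (SE 0.101) without both, 0.185 with the muscle score as a covariate and 0.016 with the adipocyte score.

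Within the mice at 22°C, *Smarcd3* followed the muscle score. Pearson's r was 0.95 (exact permutation p = 0.00238, two-sided, n = 7), with an adjusted value of 0.0476 over the 20 relations of the 10 genes with this score. Spearman's rho was 0.89 (exact permutation p = 0.0123, n = 7), which did not pass the adjustment (0.238). Without the 2 libraries farthest from the median score, replicates 1 and 7, r was 0.96. The clusters of library totals held 5 and 2 mice at 22°C, too few to recompute the relation within them. At 29°C, where the score was 1.55 to 9.43 against 6.24 to 12.70 at 22°C, r was -0.16 (exact permutation p = 0.76, n = 6). None of the other 19 relations passed the adjustment by Pearson's r. The part of the muscle markers in the level of *Smarcd3* at 22°C was not tested further.

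**Figure D3:**
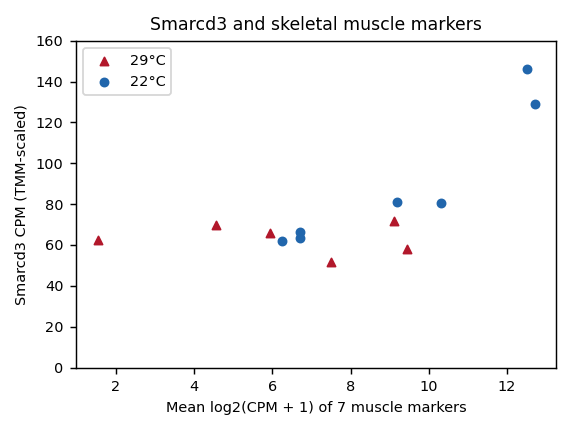
CPM (TMM-scaled) of *Smarcd3* against the mean log2(CPM + 1) of the 7 skeletal muscle markers, 1 point per mouse, with 22°C as blue circles and 29°C as red triangles. The 2 mice at 22°C with scores of 12.51 and 12.70 had 146 and 129 CPM, and the other 11 mice had 51.8 to 80.9 CPM.

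Counts of *Smarcd3* carry a further limit. In GENCODE vM21, 50.1% of its exonic bases overlap genes on the opposite strand, mainly *Chpf2*, and the sources used here do not give the strand setting of the counting. *Chpf2* itself had means of 98.1 CPM at 22°C and 81.2 CPM at 29°C (log2 fold change 0.273, edgeR P-adj = 0.203). For *Smarcd1* the overlap was 12.7%, and for the other 8 genes it was at most 1.6%.

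*Smarcd1* (BAF60a), known as a partner of nuclear receptors and their coactivators, was at 22.0 to 30.0 CPM at 22°C (median 25.9, mean 26.1 ± 3.57, SD, n = 7) and at 22.0 to 27.6 CPM at 29°C (median 25.4, mean 25 ± 1.94, SD, n = 6), with a log2 fold change of 0.062 (SE 0.092). The groups overlapped, with 3 of 7 mice at 22°C above the highest at 29°C. The ratio of *Smarcd3* to *Smarcd1* per kb had a mean of 6.90 ± 3.46 in the 22°C mice (SD, n = 7) and of 4.87 ± 0.707 in the 29°C mice (SD, n = 6), and reached 12.7 and 10.8 in 22°C replicates 1 and 7.

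ARID1A and ARID1B are the alternative DNA-binding subunits of the canonical complex. *Arid1a* was at 99.3 to 131 CPM at 22°C (median 111, mean 113 ± 11.6, SD, n = 7) and at 95.9 to 116 CPM at 29°C (median 103, mean 105 ± 8.6, SD, n = 6). *Arid1b* was at 69.5 to 86.6 CPM at 22°C (median 73.5, mean 76.8 ± 7.12, SD, n = 7) and at 71.5 to 91.3 CPM at 29°C (median 77.5, mean 78.9 ± 6.69, SD, n = 6). Both overlapped between temperatures, with log2 fold changes of 0.097 (SE 0.077) for *Arid1a* and -0.039 (SE 0.072) for *Arid1b*. For *Arid1a* it was 0.178 (SE 0.076) with the muscle score and 0.193 (SE 0.083) with the adipocyte score as a covariate. Without 22°C replicates 1 and 7 it was 0.16 (SE 0.073), and among libraries with higher totals -0.034 (SE 0.097). In the same fits, in that order, *Arid1b* was at -0.099, -0.132, -0.112 and -0.022. The ratio of *Arid1a* to *Arid1b* per kb had a mean of 1.32 ± 0.206 in the 22°C mice (SD, n = 7) and of 1.20 ± 0.164 in the 29°C mice (SD, n = 6). *Arid1a* was the higher of the pair in 12 of 13 libraries on this scale.

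*Pbrm1*, whose bromodomains bind acetylated histones in PBAF, was at 70.5 to 82.8 CPM at 22°C (median 78.6, mean 77.3 ± 4.59, SD, n = 7). At 29°C it was at 74.3 to 82.0 CPM (median 80.2, mean 79.4 ± 2.73, SD, n = 6). The log2 fold change was -0.038 (SE 0.05), and the groups overlapped.

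Of the 10 genes, 7 had a log2 fold change below 0 and 3 above 0, and the median was -0.039. Over all genes tested, 48.4% were below 0 and 51.6% above it, and the median was 0.007. With total counts in place of TMM the median of all genes shifted to -0.046. Directions of *Smarca2*, *Smarca4*, *Smarcb1*, *Smarcc2*, *Smarcd1*, *Smarcd3* and *Pbrm1* were the same in all 26 alternative fits, whereas those of *Smarcc1*, *Arid1a* and *Arid1b* turned in at least 1 of them. Of these fits, 13 left out 1 mouse each. The values nearest 0 were -0.358 for *Smarca2* and -0.203 for *Smarcc2*. They were -0.001 for *Smarca4*, 0.015 for *Smarcd1*, 0.016 for *Smarcd3*, -0.018 for *Pbrm1* and -0.025 for *Smarcb1*, so a kept direction there says little.

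**Figure D4:**
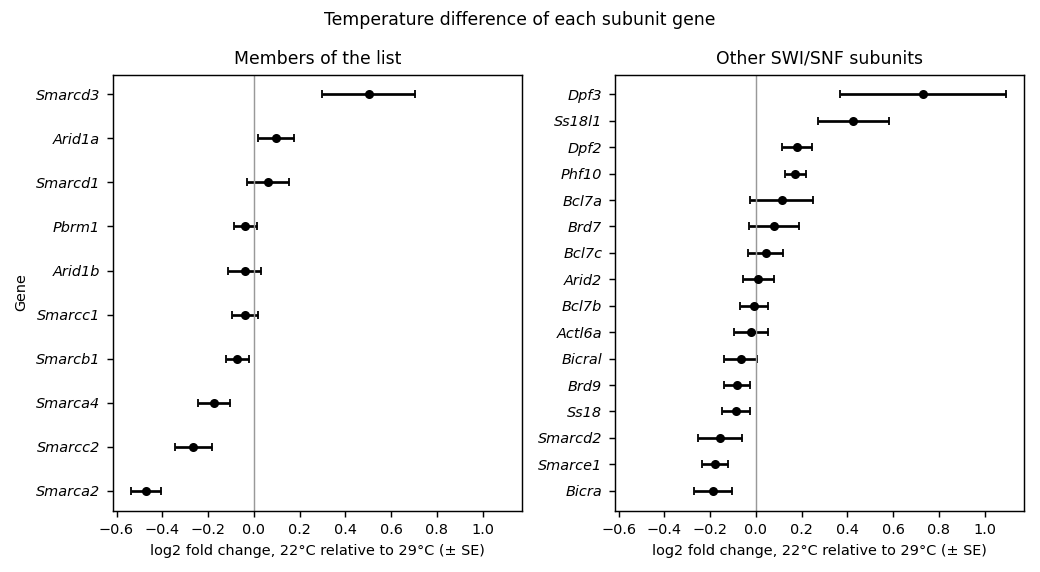
Log2 fold change of 22°C relative to 29°C from edgeR, with SE bars, for the 10 genes (left) and the 16 other SWI/SNF subunit genes that could be tested (right); the grey line marks 0. *Smarca2* (-0.47) and *Smarcd3* (0.50) lie at the ends of the left panel, and the genes in the right panel spread from -0.189 to 0.73 around a median of 0.001.

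Per kb of transcript, the order of the 10 genes at 29°C was *Smarcc2* (82.6 CPM per kb), *Smarcd3* (36.5), *Smarca2* (28.7), *Smarcb1* (25), *Smarca4* (15.7), *Arid1a* (12.9), *Pbrm1* (12.1), *Arid1b* (10.8), *Smarcc1* (8.52) and *Smarcd1* (7.56). With this length, the ranges over mice overlapped between *Smarcd3* and *Smarca2*, between *Arid1a* and *Pbrm1* and between *Pbrm1* and *Arid1b*. The ranges alone thus do not set these neighbours apart. At 22°C the order of the means was the same except that *Smarca2* (20.7 CPM per kb) stood below *Smarcb1* (23.8), with ranges of 18.7 to 23.3 and 22.3 to 26.0 that overlapped. Ranges at 22°C also overlapped between *Smarcc2* and *Smarcd3*, *Smarca4* and *Arid1a*, and *Smarcc1* and *Smarcd1*. The same held for *Arid1a* and *Pbrm1* and for *Pbrm1* and *Arid1b*, so the ranges alone do not set these neighbours apart at 22°C. Neighbours in the order were not compared within each mouse at either temperature. Over all libraries, the mean level per kb placed the genes between the 56.8th percentile (*Smarcd1*) and the 94.8th percentile (*Smarcc2*) of 17725 genes with a known length. The order turned with the length used. With all annotated exons, the order at 29°C was *Smarcc2* (60 CPM per kb), *Smarca4* (15.4), *Smarcd3* (12.4), *Smarca2* (11.8), *Arid1a* (9.16), *Pbrm1* (8.97), *Arid1b* (6.26), *Smarcc1* (6.22), *Smarcd1* (6.21) and *Smarcb1* (5.23), so that only the first place of *Smarcc2* was common to both. These lengths come from GRCm38 and are approximate for the GRCm39 build named in the submitters' processing notes.

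**Figure D5:**
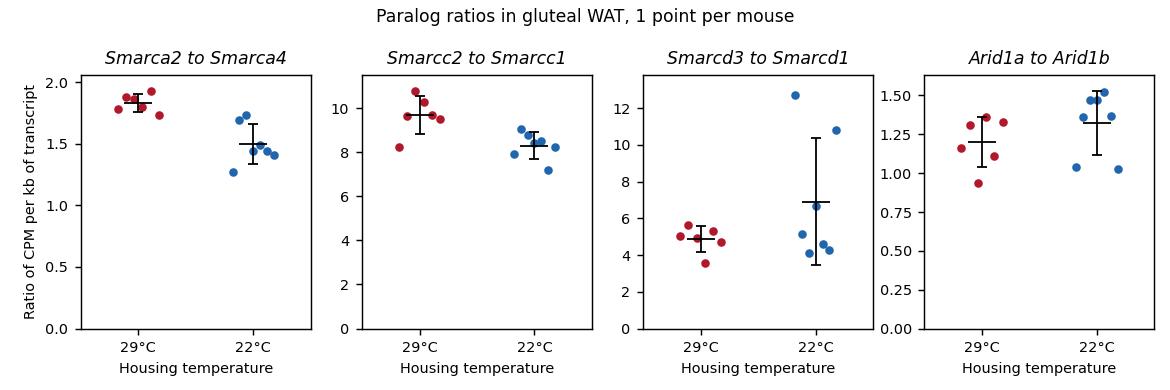
Ratio of CPM per kb of transcript within each library for 4 paralog pairs, 1 point per mouse, with 29°C in red and 22°C in blue; horizontal bars are means and error bars are SD. The ratio of *Smarca2* to *Smarca4* is 1.27 to 1.73 at 22°C and 1.73 to 1.93 at 29°C, and that of *Smarcd3* to *Smarcd1* is widest at 22°C, up to 12.7.

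Levels were also compared across mice after the mean of each temperature was taken from every library (13 libraries, 10318 genes with at least 10 CPM on average). The genes most like *Smarca2* were *Gsk3a* (Pearson's r = 0.90), *Rxrb* (0.88), *Epn1* (0.87), *Gga1* (0.86) and *9130221H12Rik* (0.84), and those most opposed were *Yap1* (-0.87), *Cbx1* (-0.82), *Sdc4* (-0.81), *Hnrnph1* (-0.81) and *Gm12940* (-0.81). Among the rest of the 10 genes, *Smarcd1* was most like *Smarca2* (0.51, rank 487 of 10318), followed by *Smarca4* (0.43, rank 829) and *Smarcc2* (0.41, rank 993). *Pbrm1* was least like *Smarca2* (-0.32, rank 9063). The SWI/SNF subunit genes outside the 10 were not ranked in this way. Pairs of the 10 genes ranged from -0.76 (*Smarcc1* with *Smarcd3*) to 0.69 (*Smarcc2* with *Smarcd1*). The 13 libraries share depth clusters and muscle content, and these correlations are a description. On the same footing, *Smarcd3* had r between 0.46 (*Myh1*) and 0.69 (*Acta1*) with the 7 muscle markers.

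Of 18 other SWI/SNF subunit genes, 16 could be tested, and *Actl6b* and *Dpf1*, subunits known from neurons, had too few counts. Among the 16, 8 were higher and 8 lower at 22°C, and the median of their log2 fold changes was 0.001. By edgeR 0 of 16 passed P-adj < 0.1 (1.94% of all genes tested did) and 5 had an unadjusted p under 0.05 (18.5% of all genes). DESeq2 called 3 of them, *Smarce1*, *Phf10* and *Ss18l1* (10.2% of all genes). *Phf10*, a PBAF subunit with PHD fingers, was at 45.7 to 52.8 CPM at 22°C (median 48.5) and 41.4 to 45.6 CPM at 29°C (median 43.1). Its groups did not overlap, as for 0.495% of genes in this direction, and its log2 fold change of 0.17 (SE 0.045) had an edgeR P-adj of 0.106. It passed in 1 of 13 fits that left out 1 mouse, that without 22°C replicate 6 (edgeR P-adj = 0.0855), with a P-adj of 0.124 to 0.22 in the other 12.

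*Smarce1*, a core subunit with an HMG domain, had a log2 fold change of -0.18 (SE 0.057, edgeR P-adj = 0.153), with 5 of 7 mice at 22°C below every mouse at 29°C. *Dpf2*, the histone-reading subunit of the canonical complex, had 0.18 (SE 0.064, edgeR P-adj = 0.182). *Ss18l1*, a paralog of *Ss18* known as CREST, had 0.43 (SE 0.154, P-adj = 0.186) at only 5.06 to 9.49 CPM at 22°C, and its values in 22°C replicates 6 and 7, 5.09 and 5.06 CPM, lay within the range at 29°C. *Bicra*, of the non-canonical complex, had -0.189 (SE 0.083, edgeR P-adj = 0.244). *Smarcd2*, the third *Smarcd* paralog and the gene of this list with the highest CPM, had a mean of 73.9 ± 11 CPM in the 22°C mice (SD, n = 7) and of 82.3 ± 7.05 CPM in the 29°C mice (SD, n = 6), with a P-adj of 0.414 by edgeR. *Ss18*, the next in CPM, was at 63.8 and 67.8 CPM (edgeR P-adj = 0.465). *Arid2*, which marks PBAF, had 0.011 (SE 0.068, edgeR P-adj = 0.95), at 50.2 ± 4.23 and 49.8 ± 3.89 CPM (SD, n = 7 and n = 6).

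Among 20 other ATPases of the SNF2 family, which move nucleosomes or remodel DNA outside SWI/SNF, 2 were lower at 22°C by edgeR's P-adj < 0.1, none passed as higher, and the median log2 fold change was -0.016. Over all genes tested, 1.21% passed as lower and 0.731% as higher, and the median was 0.007. *Hltf*, known for its role in tolerance of DNA damage, was at 18.3 to 21.2 CPM at 22°C (median 18.6) and 20.9 to 26.5 CPM at 29°C (median 23.7), with a log2 fold change of -0.31 (SE 0.067, edgeR P-adj = 0.0714). *Chd9*, a chromodomain remodeller, was at 48.0 to 61.1 CPM at 22°C (median 51.9) and 59.9 to 72.7 CPM at 29°C (median 63.7), with -0.27 (SE 0.065, edgeR P-adj = 0.0856). Each overlapped between temperatures in 1 mouse at 22°C. The calls were sensitive to single mice. *Hltf* passed in 7 of 13 fits that left out 1 mouse and was lost without 22°C replicate 1 (edgeR P-adj = 0.117) or 4 (0.112) and without 29°C replicate 1 (0.11), 2 (0.154), 3 (0.17) or 4 (0.118). *Chd9* passed in 2 of 13, those without 22°C replicates 6 (0.0909) and 7 (0.0741), and had an edgeR P-adj of 0.109 to 0.163 in the other 11.

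Polycomb proteins repress genes and are known as antagonists of SWI/SNF. Of 24 Polycomb genes, 1 passed edgeR's P-adj < 0.1, against 0.731% of genes tested as higher at 22°C, and 18 were higher and 6 lower, their median being 0.141 on the log2 scale. Within libraries of higher totals, 11 were higher and 13 lower, with a median of -0.027. *Ezh2*, the methyltransferase of PRC2, was higher at 22°C, at 10.6, 12, 11.6, 12, 11.3, 8.78 and 9.04 CPM against 7.91 to 8.80 CPM at 29°C (log2 fold change 0.345, SE 0.09, edgeR P-adj = 0.0994). Replicates 6 and 7, with higher totals, lay close to the 29°C mice, and in the libraries of higher totals the log2 fold change was 0.065 (edgeR P-adj = 0.839). *Ezh2* passed in 2 of 13 fits that left out 1 mouse, those without 22°C replicate 6 (0.06) or 7 (0.0894), with a P-adj of 0.141 to 0.207 in the other 11. Its paralog *Ezh1* had -0.169 (SE 0.103, edgeR P-adj = 0.402).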

How the data were processed

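RNA-seq of gluteal WAT from 7 mice at 22°C and 6 at 29°C was used, 1 library per mouse, grouped by the labels' temperature. The authors aligned reads with STAR (2.7.5a in the submitters' processing notes, with GRCm39), used featureCounts to count reads per gene, and deposited raw counts and DESeq2 regularized log2 values. The counts were compared with edgeR 4.0.16 in R 4.3.3 (TMM, filterByExpr, quasi-likelihood F test, Benjamini-Hochberg over 17779 genes, P-adj < 0.1). On simulated counts, this fit called 31 of 100 genes changed 1.5-fold and 63 of 100 changed 2-fold, with 6 false calls. Genes that did not pass may thus still differ. Log2 CPM used a prior count of 2. The deposited log2 values entered through limma 3.58.1. Other alternatives were DESeq2 1.42.0, other scaling and filters, a replicate block, covariates, and leaving out mice. Leaving out 2 muscle-rich libraries was added after seeing the data. Library totals were 22356637 to 25245785. Lengths came from GENCODE vM21. No 2 libraries agreed within sampling noise. Members and lists were chosen with earlier results of these data known. Named genes were the members, abundant or low-p genes of each list, and those most like *Smarca2* in level; *Ezh1*, *Dpf1*, *Actl6b* and *Chpf2* were added after values were seen.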

Additional observations from a re-analysis of the deposited data

Results flagged for a closer look

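*Ep400*, an ATPase of the SNF2 family, was the 1 gene with a mouse set apart from its group among 58 groups of values examined. In 29°C replicate 1 it was at 71.3 CPM, whereas the other 5 mice at 29°C were at 82.0 to 86.7 CPM, a gap of 0.698 of the group's range, beyond Dixon's limit for 6 values. Chance sets apart about 1 in 20 such groups.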

How the results depend on the processing

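*Smarca2* kept its direction in all 26 alternatives that give a fold change, with log2 fold changes of -0.526 to -0.358 and of -0.50 to -0.446 with each mouse left out. It moved most with libraries of higher totals only (-0.366) and with the cluster of totals as a covariate (-0.358). The 22°C minus 29°C difference in the log2 ratio of *Smarca2* to *Smarca4* was -0.358 to -0.216 in all alternatives and -0.331 to -0.256 with each mouse left out. The median of the other 9 genes stayed between -0.098 and -0.015. Nothing in the labels ties mice of the same replicate number, and they were treated as unpaired. Their deviations correlated at 0.35 to 0.51 in 5 of 6 pairs and at 0.05 for replicate 5, and 4 of 6 correlated best with their own number, a hint from the data and not from the design. With the replicate number as a block, over replicates 1 to 6 only, 263 genes passed, *Smarca2* was at -0.502 and 0 Polycomb genes passed. Without 22°C replicate 7 and with no block, 184 genes passed, *Smarca2* was at -0.5 and 1 Polycomb gene passed.

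Over all genes, 345 passed (130 higher, 215 lower). The count was 1676 with DESeq2 (914 higher, 762 lower), 148 with total counts (44 higher, 104 lower), 42 without a filter on low counts, 46 with the muscle score and 89 with the adipocyte score as covariate (51 higher, 38 lower), 8 with libraries of higher totals, 4 with the cluster of totals as covariate and 40 at P-adj < 0.05. It was 32 (without 29°C replicate 3) to 652 (without 22°C replicate 6) with each mouse left out. Of the other SWI/SNF subunits, 3 passed with DESeq2, 1 with a mean of at least 10 counts, and 0 to 1 with each mouse left out. Of the SNF2-family ATPases, 1 passed with total counts, with the muscle score or without both muscle-rich libraries. In that family 0 passed without a filter, with the adipocyte score, with either treatment of the totals or at P-adj < 0.05, and 0 to 2 with each mouse left out. Of the Polycomb genes, 3 passed with DESeq2 and 2 without both muscle-rich libraries. For Polycomb, 0 passed with total counts, without a filter, with the muscle or adipocyte score, with either treatment of the totals, with limma on the log2 values or at P-adj < 0.05, and 0 to 2 with each mouse left out. The cause of these changes was not tested. Low counts limited what could be said of *Actl6b* and *Dpf1*, which had at most 24 and 20 counts in a library.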
